A study of Mus musculus with 2 samples.

Results

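The genes described here are 37 cathepsins, lysosomal hydrolases, their activators and the lysosomal membrane glycoproteins Lamp1 and Lamp2, taken by name from 43346 Ensembl genes and found by identifier in both deposited gene tables. The RNA came from the gonadal fat pad, the white fat depot attached to the gonads, of adult C57BL/6J mice aged 8 weeks. The labels name no treatment or mutation and give the health state as unknown. There was 1 group of 2 libraries, biological replicates 1 and 2 of a pool of males and females, from separate biosamples that carry the same donor identifier. The labels used here do not say how many mice stand behind each library, so differences between the libraries may be technical. The libraries were made from polyadenylated RNA longer than 200 nt and read from both ends over 76 nt, with strand kept.

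Lysosomes are the acid compartments in which cells break down proteins, glycans, lipids and glycogen. Their soluble enzymes are made in the endoplasmic reticulum, tagged with mannose 6-phosphate and carried to the lysosome by receptors, and the cathepsins become active there by removal of a propeptide. Macrophages of fat use lysosomes to clear dying adipocytes and lipid. The epithelium of the epididymis, the duct beside this depot in males, is known to make and secrete lysosomal glycosidases and proteases into the fluid in which sperm mature. Transcription factor EB (gene Tfeb) and its relatives bind E-boxes with the core CACGTG in promoters of many lysosomal genes.

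Expected counts, the estimated numbers of fragments per gene, summed to 47106979 over the genes of replicate 1 and 54129473 over those of replicate 2. Levels are given as TPM, a transcript abundance scaled by transcript length and depth. The labelled tissue was checked against its markers, and all 13 adipocyte markers were expressed, with a median of 654 TPM in replicate 1 and 720.0 TPM in replicate 2. All 14 markers of epididymal epithelium were expressed too, with a median of 1890.0 TPM in replicate 1 and 1706 TPM in replicate 2. The label of a mixed-sex pool stands against the data, since Xist, which coats the inactive X chromosome in female cells, was counted at 18 fragments for replicate 1 and 4 for replicate 2, and the Y-linked gene Kdm5d was at 7.94 TPM in replicate 1 and 8.25 TPM in replicate 2. With bulk RNA, more cells of a type and more RNA per cell cannot be told apart.

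Letters of the E-box core were frequent in the promoters of these genes. RefSeq promoters on GRCm38.p6, the assembly that mm10 names, covering 250 bases before and 50 after a start, were at hand for 32 of the 37 genes, and CACGTG, which reads the same on both strands, was present in 11 of the 32. Among all 27025 genes with a promoter there, 8.09% held it, a share not matched for base composition. The 7-letter form TCACGTG, searched on both strands and contained within the hits of the core, was in 9 of the 32 genes and in 4.29% of all genes, and the 8-letter palindrome TCACGTGA was in Ctsa, Ctsd and Gla and in 1.12% of all genes. The genes with the core ranged from 3.91 to 1123 TPM in replicate 1 and from 2.91 to 1333 TPM in replicate 2, and those without it from 12.02 to 1326 TPM in replicate 1 and from 7.29 to 1242 TPM in replicate 2. The median was 90.7 TPM in replicate 1 and 91.6 TPM in replicate 2 for the 11 genes with the core, and 44.3 and 50.5 TPM for the 21 without it. The ranges overlapped over most of their span, and the difference of the medians was not tested. A match is only a match of letters, and binding was not measured.

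The promoter of Lamp1, whose product lines the lysosomal membrane, held the core 4 times in the 66 bases before its start (chr8:13159095-13159160, + strand, GRCm38.p6). It is shown because no other promoter here held it more than 2 times, with the cores in capitals.
Lamp1: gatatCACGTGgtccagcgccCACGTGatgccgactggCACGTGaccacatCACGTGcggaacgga

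Windows of 26 bases around the 8-letter palindrome, in capitals on the strand of each gene, are shown for the 3 genes that held it. Counted from the RefSeq start on which each promoter was built, the core began at -12 and 5 in Ctsa, at -98 in Ctsd, and at -227 and -194 in Gla. In all 3 genes this start lies downstream of the 5′ end of the GENCODE gene, and in Ctsa it belongs to the downstream one of its 2 promoters. The windows are chr2:164833751-164833776 and chr2:164833768-164833793 (+ strand) for Ctsa, chr7:142387910-142387935 (- strand) for Ctsd, and chrX:134601217-134601242 and chrX:134601184-134601209 (- strand) for Gla. Of these genes Ctsd was among the highest of the 37 and Gla among the lowest.
Ctsa, first: agcaaactgTCACGTGAtgcagatgc
Ctsa, second: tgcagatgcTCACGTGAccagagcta
Ctsd: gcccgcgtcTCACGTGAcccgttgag
Gla, first: agcgattgaTCACGTGAgcatctacg
Gla, second: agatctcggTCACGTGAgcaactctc

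All 37 genes were expressed, meaning 1 TPM or more in both libraries, against 33.0% of the 43346 genes measured. The 37 are all protein-coding and were chosen with earlier results of these data known, whereas the 43346 include non-coding genes and pseudogenes. These shares therefore do not compare like with like, and the contrast is no result about the 37 genes. Their median was 46.9 TPM in replicate 1 and 50.5 TPM in replicate 2, above the median of 14.2 and 12.7 TPM of the 14303 genes expressed in both libraries. Of the 37, 34 were at 10 TPM or more and 9 at 100 TPM or more in both libraries, and 33 lay above the median expressed gene. The genes held 0.582% of the TPM of all genes in replicate 1 and 0.603% in replicate 2, and 1.02% and 1.13% of their expected counts. The ratio given with each level below is log2 of (TPM + 1) in replicate 1 over that in replicate 2. Levels were uneven, since Psap, Ctsd and Lamp1 carried 59.4% of the summed TPM of the 37 genes in replicate 1 and 60.0% in replicate 2.

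**Figure D1:**
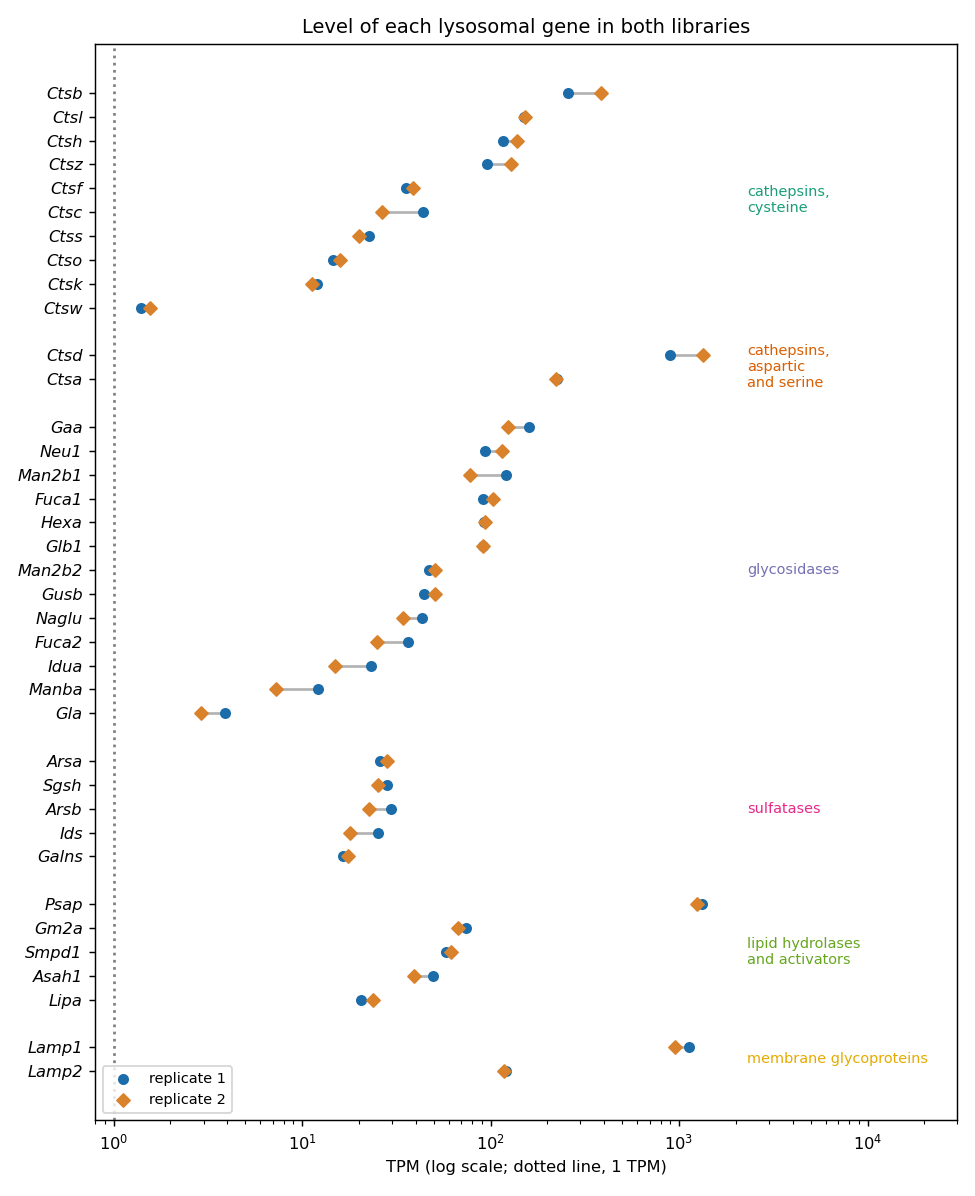
Level in TPM (log axis) of each of the 37 genes, by role and in order of mean level, with replicate 1 as circles and replicate 2 as diamonds joined by a grey line. Psap, Ctsd and Lamp1 stand far to the right of the others, Ctsw stands just right of the dotted line at 1 TPM, and for most genes both libraries lie close together.

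Among the cathepsins, the aspartic endopeptidase gene Ctsd (chromosome 7, 142375911 to 142388038, mm10) was the highest, at 891 TPM in replicate 1 and 1333 TPM in replicate 2 (ratio -0.58), from 62644 and 113470 fragments. It ranked 3 of the 37 genes in replicate 1 and 1 in replicate 2, and its promoter is one of the 3 with the palindrome shown above. Ctsa, a serine carboxypeptidase that also shields the sialidase Neu1 and the beta-galactosidase Glb1 in a complex, was at 225 TPM in replicate 1 and 222 TPM in replicate 2 (10027 and 12563 fragments, ratio 0.02). Within that complex the TPM of Ctsa was 2.42 and 1.92 times that of Neu1 and 2.48 and 2.42 times that of Glb1, in replicate 1 and replicate 2. These ratios rest on a short form, since Ctsa-210, 659 nt long, was at 113 TPM in replicate 1 and 106 TPM in replicate 2. Ctsa-202, with 1422 coding nt, was at 79.4 and 82.3 TPM, which is not above Neu1 or Glb1.

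All 10 cysteine cathepsin genes were expressed, but over a wide span. Ctsb, an endopeptidase that also trims dipeptides from C-termini (chromosome 14, 63122462 to 63145923), led at 258 TPM in replicate 1 and 384 TPM in replicate 2 (43557 and 80592 fragments, ratio -0.57). The endopeptidase gene Ctsl followed at 151 TPM in replicate 1 and 153 TPM in replicate 2 (9872 and 12414 fragments, ratio -0.02). Ctsh, an aminopeptidase, was at 117 TPM in replicate 1 and 138 TPM in replicate 2 (4710 and 6765 fragments, ratio -0.24), and Ctsz, a carboxypeptidase, at 96.2 TPM in replicate 1 and 128 TPM in replicate 2 (4392 and 7228 fragments, ratio -0.41). These 4 stood above the other 6 in both libraries. Ctsc, the dipeptidyl peptidase that activates granule proteases of leukocytes, was at 43.6 TPM in replicate 1 and 26.6 TPM in replicate 2 (3140 and 2622 fragments, ratio 0.69), and Ctsf at 35.5 TPM in replicate 1 and 39.0 TPM in replicate 2. The order of this pair differed between the libraries. Ctso was at 14.6 TPM in replicate 1 and 15.8 TPM in replicate 2.

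Ctss, Ctsk and Ctsw, known from particular cell types, were below Ctsb, Ctsl, Ctsh and Ctsz in both libraries. Only Ctsw was low among expressed genes. By mean level, Ctss stood above 62.5% of expressed genes, Ctsk above 46.1% and Ctsw above 3.15%. Ctss, which cleaves the invariant chain of MHC class II in antigen-presenting cells, was at 22.6 TPM in replicate 1 and 20.1 TPM in replicate 2. Ctsk, the collagen-cleaving cathepsin of osteoclasts, was at 12.02 TPM in replicate 1 and 11.3 TPM in replicate 2 (567 and 661 fragments, ratio 0.08), and lies 17.4 kb from Ctss on chromosome 3 on the same strand. Ctsw, which is known from cytotoxic lymphocytes, was the lowest of the 37 at 1.40 TPM in replicate 1 and 1.56 TPM in replicate 2 (ratio -0.09). Its 53 fragments in replicate 1 have a 95% Poisson interval of 39.7 to 69.3 and its 73 in replicate 2 one of 57.2 to 91.8, for counting error only, so the libraries cannot be told apart in Ctsw at this depth. Of 10 T and NK cell markers, 2 were expressed and the list's median was 0.66 TPM in replicate 1 and 0.50 TPM in replicate 2. The 2 were Klrb1c, at 59.7 TPM in replicate 1 and 22.8 TPM in replicate 2, and Nkg7, at 3.12 and 2.01 TPM. All 14 macrophage markers were expressed, with a median of 14.0 TPM in replicate 1 and 13.8 TPM in replicate 2 and a sum of 709 and 840 TPM, and their part in the level of Ctss was not tested.

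None of the 10 other genes named as cathepsins reached 1 TPM in both libraries. Ctse, an aspartic protease, was at 0.91 TPM in replicate 1 and 1.35 TPM in replicate 2, and Ctsg, a serine protease of neutrophil granules, at 0.17 TPM in replicate 1 and 0.080 TPM in replicate 2. The 8 genes Cts3, Cts6, Cts7, Cts8, Ctsj, Ctsm, Ctsq and Ctsr, which are known from rodent placenta, had 0 fragments in both libraries, a count that allows up to 3 per library.

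Among the 13 glycosidases Gaa, which frees glucose from glycogen (chromosome 11, 119267887 to 119285454), was the highest in mean level, at 159 TPM in replicate 1 and 124 TPM in replicate 2 (17524 and 17689 fragments, ratio 0.36). The sialidase gene Neu1 was at 92.9 TPM in replicate 1 and 116 TPM in replicate 2 (8041 and 11611 fragments, ratio -0.31). Man2b1, the alpha-mannosidase that trims glycoprotein glycans, was at 121 TPM in replicate 1 and 78.3 TPM in replicate 2 (18534 and 14906 fragments, ratio 0.62). So Man2b1 stood second in replicate 1 but sixth in replicate 2 of this group, and order within the upper glycosidases was not stable. Hexa, the alpha subunit of beta-hexosaminidase, was at 91.9 TPM in replicate 1 and 93.8 TPM in replicate 2, and Glb1, beta-galactosidase, at 90.7 TPM in replicate 1 and 91.6 TPM in replicate 2. Both were nearly equal in the libraries.

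The fucosidase pair differed in level. Fuca1, the lysosomal alpha-fucosidase, was at 91.1 TPM in replicate 1 and 103 TPM in replicate 2 (6956 and 6168 fragments, ratio -0.17), whereas Fuca2, a secreted relative, was at 36.5 TPM in replicate 1 and 24.8 TPM in replicate 2. Gusb, beta-glucuronidase, was at 44.3 TPM in replicate 1 and 50.5 TPM in replicate 2. Man2b2, known as the epididymis-specific alpha-mannosidase, was at 46.9 TPM in replicate 1 and 50.7 TPM in replicate 2, well under the epididymal marker median. Naglu, which removes N-acetylglucosamine from heparan sulfate, was at 43.4 TPM in replicate 1 and 34.3 TPM in replicate 2, and Idua, alpha-iduronidase of the same pathway, at 23.2 TPM in replicate 1 and 15.0 TPM in replicate 2 (2037 and 1472 fragments, ratio 0.59). The lowest glycosidases were Manba, beta-mannosidase, at 12.2 TPM in replicate 1 and 7.29 TPM in replicate 2 (1458 and 1154 fragments, ratio 0.67), and Gla, alpha-galactosidase A, at 3.91 TPM in replicate 1 and 2.91 TPM in replicate 2 (431 and 399 fragments, ratio 0.33). Along the route by which N-glycan mannose is removed, the TPM of Man2b1 was 9.96 times that of Manba in replicate 1 and 10.7 times in replicate 2. That ratio was close because both genes were higher in replicate 1 by a like fold. The TPM of Man2b1 was 2.58 times that of Man2b2 in replicate 1 and 1.54 times in replicate 2, so the second mannosidase pair was not close.

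Sulfatases remove sulfate from glycosaminoglycans and sulfatides, and the 5 measured here formed an even group, all between 16 and 30 TPM. Arsb, which acts on dermatan sulfate, was at 29.8 TPM in replicate 1 and 22.8 TPM in replicate 2 (4193 and 3982 fragments, ratio 0.37), and Arsa, which acts on sulfatide, at 25.9 TPM in replicate 1 and 28.1 TPM in replicate 2 (2339 and 3239 fragments, ratio -0.12). Sgsh, of heparan sulfate breakdown, was at 28.3 TPM in replicate 1 and 25.4 TPM in replicate 2 (2750 and 3414 fragments, ratio 0.15), and Ids, of heparan and dermatan sulfate breakdown, at 25.4 TPM in replicate 1 and 18.01 TPM in replicate 2 (4348 and 3919 fragments, ratio 0.47). Galns, of keratan sulfate breakdown, was at 16.5 TPM in replicate 1 and 17.6 TPM in replicate 2 (1458 and 1932 fragments, ratio -0.09). The order of Arsb, Arsa and Sgsh differed between the libraries. Sumf1, which converts the active-site cysteine that all sulfatases need, was at 48.1 TPM in replicate 1 and 33.6 TPM in replicate 2.

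Of the lipid group, Psap, which encodes the precursor of the 4 saposins that present sphingolipids to their hydrolases (chromosome 10, 60277627 to 60302597), had the highest mean of the 37 genes, 1284 ± 59.8 TPM (SD, n = 2). It was at 1326 TPM in replicate 1 and 1242 TPM in replicate 2 (ratio 0.10), from 120197 and 139757 fragments. Gm2a, the activator that serves beta-hexosaminidase, was at 73.8 TPM in replicate 1 and 67.0 TPM in replicate 2 (10759 and 12147 fragments, ratio 0.14), which made Psap 17.97 and 18.5 times as high. The hydrolases that these activators assist were far lower than Psap. Smpd1, acid sphingomyelinase, was at 57.8 TPM in replicate 1 and 62.0 TPM in replicate 2 (4726 and 6302 fragments, ratio -0.10), and Asah1, acid ceramidase, at 49.4 TPM in replicate 1 and 39.3 TPM in replicate 2 (3066 and 2881 fragments, ratio 0.32). Lipa, the acid lipase that frees fatty acids and cholesterol from lipid taken up by the lysosome, was the lowest of the group at 20.5 TPM in replicate 1 and 23.8 TPM in replicate 2 (2107 and 3032 fragments, ratio -0.20).

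Of the membrane glycoproteins, Lamp1 (chromosome 8, 13159161 to 13175338), whose promoter has the 4 cores shown above, was at 1123 TPM in replicate 1 and 947 TPM in replicate 2 (85378 and 89370 fragments, ratio 0.25). Lamp2, whose forms differ in their tails and in their part in autophagy, was at 121 TPM in replicate 1 and 117 TPM in replicate 2 (10882 and 12216 fragments, ratio 0.04). The TPM of Lamp1 was thus 9.30 times that of Lamp2 in replicate 1 and 8.08 times in replicate 2.

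Genes that share the pathway but are no members were expressed at like levels. All 29 other hydrolases and activators were expressed, with a median of 44.6 TPM in replicate 1 and 38.3 TPM in replicate 2, led by the cholesterol carrier gene Npc2 at 837 and 812 TPM and by Acp5, an acid phosphatase of osteoclasts and macrophages, at 214 TPM in replicate 1 and 385 TPM in replicate 2. Of the 19 lysosomal membrane and transport genes 18 were expressed, with a median of 44.1 TPM in replicate 1 and 44.8 TPM in replicate 2, and Lamp3 was at 0.030 and 0.010 TPM. The 12 genes of sorting and activation were all expressed, with a median of 41.7 TPM in replicate 1 and 30.5 TPM in replicate 2. Sort1, which encodes the sorting receptor sortilin, was at 294 TPM in replicate 1 and 227 TPM in replicate 2, above the mannose 6-phosphate receptor genes M6pr at 77.6 and 72.9 TPM and Igf2r at 16.4 and 12.1 TPM. Of the 4 transcription factor genes, Tfe3 was the highest at 44.7 TPM in replicate 1 and 29.7 TPM in replicate 2, Tfeb was at 18.2 and 14.3 TPM, Mitf at 3.13 and 2.73 TPM, and Tfec did not reach 1 TPM in either library.

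Genes of the cystatin family, which includes inhibitors of cysteine cathepsins, were divided. Cst3, the secreted inhibitor cystatin C, was at 1408 TPM in replicate 1 and 1446 TPM in replicate 2, and stood at 5.45 and 3.76 times the TPM of Ctsb. The intracellular inhibitor gene Cstb was at 105 TPM in replicate 1 and 117 TPM in replicate 2. A group of 3 cystatin-family genes known from the epididymis were also high, with Cst11 at 795 TPM in replicate 1 and 504 TPM in replicate 2, Cst8 at 537 and 423 TPM, and Cst12 at 255 and 144 TPM. They are listed by family, and whether their products inhibit cathepsins was not measured. The stefin A genes Stfa1, Stfa2 and Stfa3 had 0 fragments in both libraries, and in all 5 of the 11 genes of this family list were expressed.

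**Figure D2:**
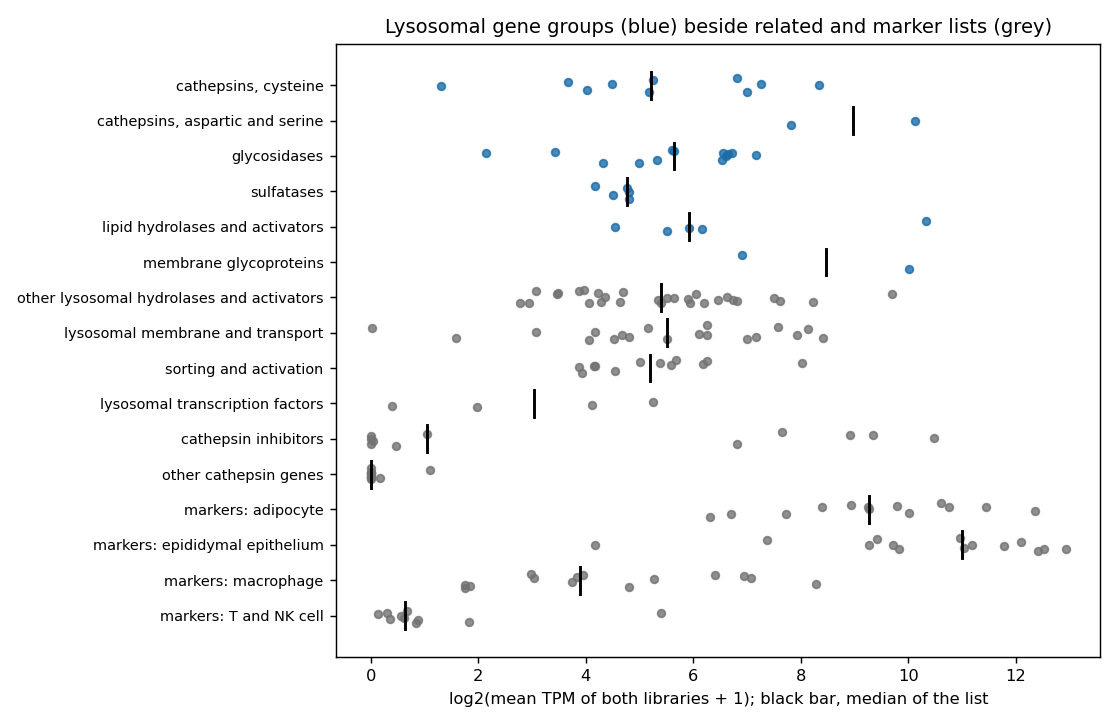
Mean level of both libraries, as log2(TPM + 1), of each gene in the groups of lysosomal genes (blue) and in related and marker lists (grey), with the median of each list as a black bar. The other hydrolases and the sorting genes have medians close to those of the glycosidases, the other cathepsin genes lie near 0, and the adipocyte and epididymal markers lie above most lysosomal genes.

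By this ratio 22 of the 37 genes were within 1.2-fold between the libraries, a share near the 56.6% found over the 16920 genes whose mean count reached 20. Replicate 1 was higher for 19 genes and replicate 2 for 18, with a median ratio of 0.02. The 14875 genes that averaged at least 1 TPM had a median of 0.12, and 65.0% of them were higher in replicate 1. None of the 37 was over 2-fold apart, against 2.7% of these 16920 genes. Over 1.5-fold apart were 4 of the 37, all higher in replicate 1, against 12.9% of genes in either direction, 9.46% higher in replicate 1 and 3.48% higher in replicate 2. A share of 10.8% is near that background and is no result about these genes.

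The 4 genes were Ctsc, Manba, Man2b1 and Idua, with folds of 1.61, 1.59, 1.54 and 1.51. Just outside lay Fuca2, 1.451-fold higher in replicate 1, and, on the other side, Ctsd and Ctsb, 1.495-fold and 1.486-fold higher in replicate 2. Because the median gene was 0.12 higher in replicate 1 on this scale, the same ratios were also read relative to the median gene. For this the TPM of replicate 1 was divided by 1.10, the median ratio of TPM taken without the pseudocount. Then Ctsd and Ctsb, at log2 ratios of -0.72 and -0.71, were over 1.5-fold apart and the 4 others were not, with 0.56 for Ctsc and 0.54 for Manba, against 10.7% of all genes, 5.58% higher in replicate 1 and 5.11% higher in replicate 2. With counts scaled by TMM, the trimmed mean method of edgeR, Ctsd and Ctsb were 1.63 and 1.66-fold higher in replicate 2, Idua was 1.52-fold higher in replicate 1, and 10.8% of all genes passed the limit, 5.87% higher in replicate 1 and 4.96% higher in replicate 2. As FPKM, which scales fragments by length and library size, Ctsd and Ctsb alone passed, against 10% of all genes, and with the size factors of DESeq2 the same 3 genes as with TMM passed, against 18.4%. With posterior mean TPM, Ctsc, Manba and Man2b1 passed, against 12.2%, and counting transcripts with a coding sequence alone, the 4 genes first named and Asah1 passed, against 12.4% of 15329 genes. Such transcripts include forms annotated as targets of nonsense-mediated decay, among them Asah1-202 and Manba-204. With them Asah1, Manba and Ctsc lay at the limit, with folds of 1.504, 1.505 and 1.5. Alone, Asah1-201 was at 26.9 TPM in replicate 1 and 19.5 TPM in replicate 2, and Manba-201 at 10.9 and 7.13 TPM. Both are under 1.5-fold apart on the scale of TPM + 1. A count over all 37 genes without decay-targeted forms was not made. None of the 37 genes was past 1.5-fold under all 6 measures tried, so which genes pass depended on the scaling. The 6 are not independent, since FPKM and centred TPM shift the ratios of TPM by a near-constant amount, and posterior means stay close to TPM. Direction held under all 6 for 13 genes higher in replicate 1 and 17 higher in replicate 2, and turned for the other 7. These are 35.1%, 45.9% and 18.9% of the 37 genes, against 45.8% held higher in replicate 1, 32.9% held higher in replicate 2 and 21.3% turned over the 16920 genes, and the difference was not tested.

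**Figure D3:**
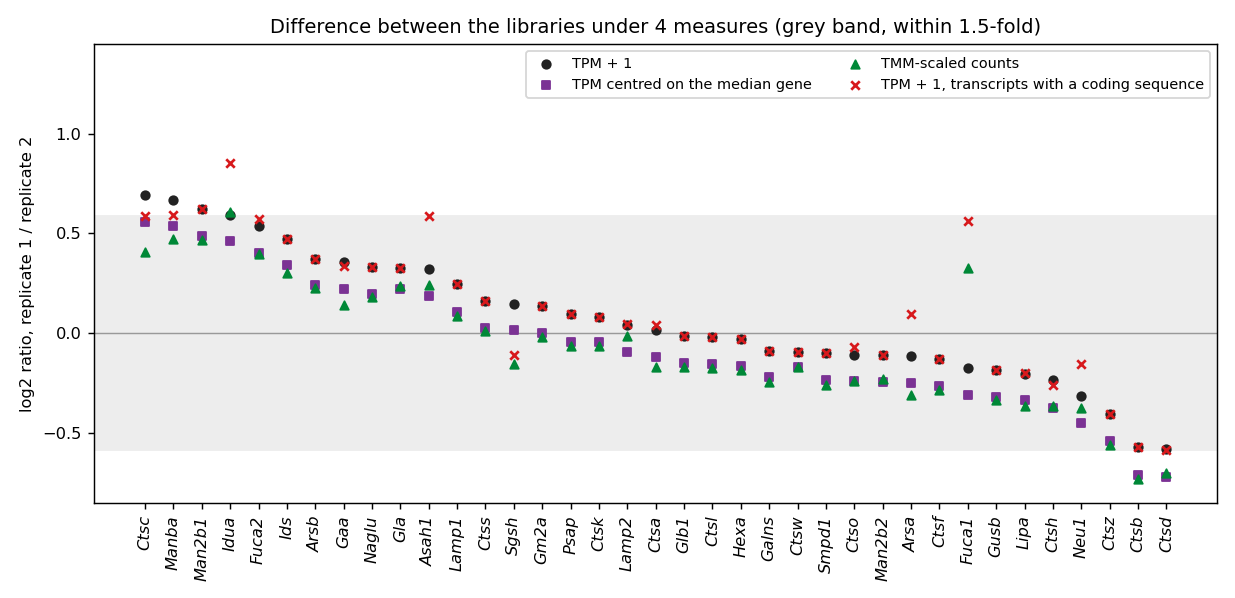
Log2 ratio of replicate 1 over replicate 2 for the 37 genes, in order of the ratio of TPM + 1 (circles), beside TPM centred on the median gene (squares), TMM-scaled counts (triangles) and TPM of transcripts with an annotated coding sequence (crosses). Ctsd and Ctsb leave the grey band of 1.5-fold downward once the ratio is centred or scaled by TMM, and for Fuca1 the circle and square lie below 0 while the triangle and cross lie above it.

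By role, the cysteine cathepsins had 7 of 10 genes higher in replicate 2 and a median of -0.10, and the glycosidases had 7 of 13 higher in replicate 1 and a median of 0.33. Of all genes that averaged at least 1 TPM, 65.0% were higher in replicate 1, with a median of 0.12. The glycosidase median is the ratio of Gla, the lowest of that group, and the next ratio below it is -0.015, of Glb1. The medians of these 2 roles kept their sign under the 6 measures, which are not independent, with -0.21 and 0.18 under TMM. Their summed TPM was 752 in replicate 1 and 917 in replicate 2 for the cysteine cathepsins, and 857 and 792 for the glycosidases. Marker lists moved between the libraries as well. The 14 epididymal markers had a median ratio of 0.47 with 11 higher in replicate 1 and sums of 42990.0 and 30510.0 TPM, and the 13 adipocyte markers a median of -0.10 with 7 higher in replicate 2 and sums of 16080.0 and 15250.0 TPM. The direction of the adipocyte sums depends on Cfd, the highest of the 13, at 6724 TPM in replicate 1 and 3717 TPM in replicate 2. Without Cfd the sum is higher in replicate 2. The 14 macrophage markers had a median of 0.05 by TPM and of -0.09 under TMM, so their direction turned with the scaling. The part of these cells in the ratios of the lysosomal genes was not tested.

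Most of the genes had a single main transcript. The deposited tables list 140 transcripts of these genes, of which 139 were found in GENCODE M21, and 14 genes had 1 transcript only. The leading transcript was protein-coding in 36 genes and held over 90% of the TPM in 19. Averaged over the libraries, it held under 50% in 4 genes, Ctsh, Arsa, Gaa and Ctsa.

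Short and non-coding transcripts weighed on the TPM of several genes. In Ctsa the form Ctsa-210, 659 nt long, held 50.5% of the TPM in replicate 1 and 47.9% in replicate 2 but 18.7% and 17.1% of the fragments, while Ctsa-202, with 1422 coding nt, held 68.5% and 70.3% of the fragments. In Arsa the retained-intron form Arsa-201 held 38.2% of the TPM in replicate 1 and 46.9% in replicate 2, against 42.1% and 38.1% for the coding form Arsa-202. In Sgsh the non-coding form Sgsh-204 held 51.1% of the TPM in replicate 1 and 42.4% in replicate 2. Transcripts with a coding sequence were at 16.01 TPM in replicate 1 and 14.9 TPM in replicate 2 for Arsa, and at 13.4 TPM and 14.5 TPM for Sgsh, about as low as Galns. Ctsh was spread over Ctsh-201, its full coding form, at 44.0% and 37.3%, Ctsh-202, annotated as a target of nonsense-mediated decay, at 24.8% and 34.6%, and Ctsh-204 at 25.9% and 24.2%.

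Counting transcripts with a coding sequence alone turned the direction of Fuca1, Arsa and Sgsh, to log2 ratios of 0.56, 0.09 and -0.11, and the turn was widest in Fuca1. By fragments it stood at 6956 in replicate 1 and 6168 in replicate 2, and yet its TPM was lower in replicate 1. The non-coding Fuca1-205, 401 nt long, took 56 fragments in replicate 1 and 375 in replicate 2, and these made 8.89% and 44.2% of the gene's TPM from 0.80% and 6.08% of its fragments. The coding form Fuca1-201 was at 79.6 TPM in replicate 1 and 53.6 TPM in replicate 2, and was thus 1.48-fold higher in replicate 1 on the scale of TPM + 1. Idua moved further apart in the same way, with transcripts that have a coding sequence at 14.9 TPM in replicate 1 and 7.81 TPM in replicate 2, a fold of 1.81 against 1.51 for the whole gene. In Asah1 the retained-intron form Asah1-204 held 17.2% in replicate 1 and 31.8% in replicate 2, and transcripts with a coding sequence were at 40.7 and 26.7 TPM. Of these, the decay-targeted Asah1-202, with 129 coding nt, held 13.6 and 7.24 TPM, and the protein-coding Asah1-201 held 26.9 and 19.5 TPM.

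**Figure D4:**
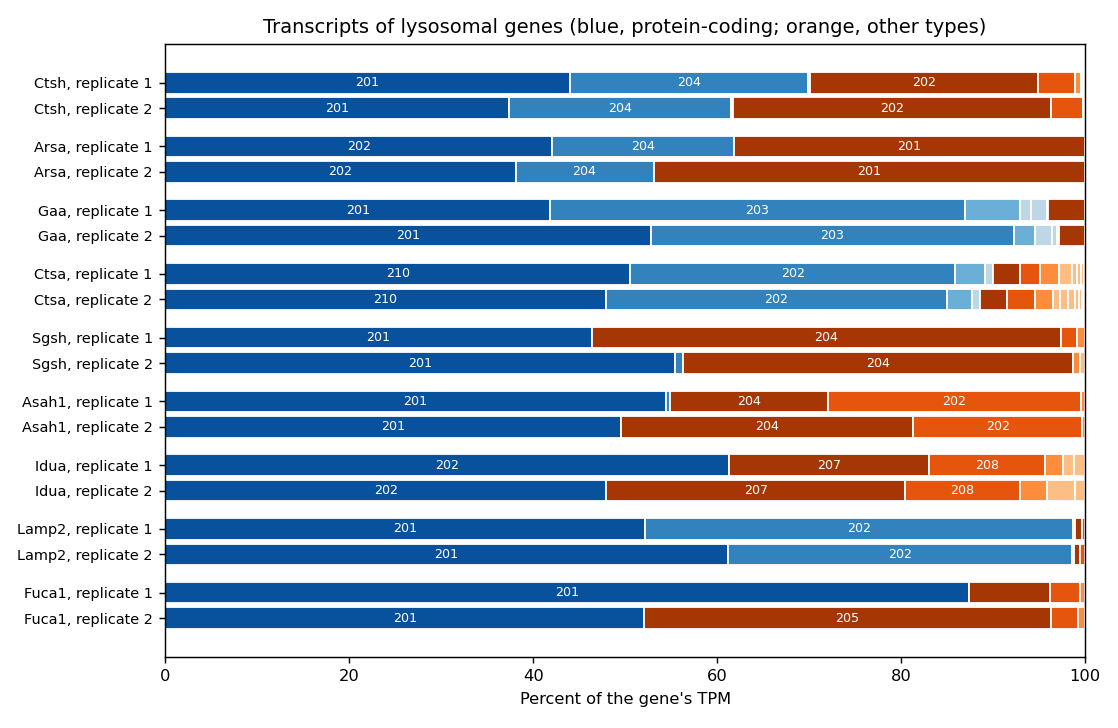
Share of TPM, in percent, that each transcript of a gene has in replicate 1 and replicate 2 for 9 genes with divided transcripts, with protein-coding transcripts in blue, other types in orange and transcript numbers for shares over 12%. The orange share of Fuca1 is far larger in replicate 2, and in Arsa, Sgsh, Asah1 and Idua non-coding or decay-targeted forms take a large part in both libraries.

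Other genes were split between coding forms. Psap-202, with 1662 coding nt, held 87.4% of the TPM in replicate 1 and 87.5% in replicate 2, and Psap-205, which has 1 more exon and 9 more coding nt, held 11.2% and 10.7%. The split between these forms was thus close in the libraries. Ctsd-202 held 91.3% in replicate 1 and 71.1% in replicate 2, and the rest lay mostly on Ctsd-201 at 8.28% and 28.8%, with 4592 and 29627 fragments. Lamp2-201 and Lamp2-202, both with 1245 coding nt in 9 exons, held 52.2% and 46.5% in replicate 1 and 61.2% and 37.4% in replicate 2. Gaa-201 and Gaa-203, both with 2859 coding nt, held 41.9% and 45.1% in replicate 1 and 52.8% and 39.5% in replicate 2, so the leading form of Gaa differed between the libraries.

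The genes lie on 15 chromosomes and mostly apart. Besides Ctsk and Ctss, the closest pair was Gaa and Sgsh, 58.0 kb apart on chromosome 11 and on opposite strands. In 13 genes an exon overlapped an exon of another GENCODE M21 gene, in 11 of them on the opposite strand and in 3 on the same strand. The libraries kept strand, but how strand entered the counting is not given in the sources used here, so fragments of overlapping pairs may be divided wrongly. This touches Ctsw most, since Fibp on the other strand was at 78.7 TPM in replicate 1 and 76.9 TPM in replicate 2, and it also touches Ctsa beside Pltp, at 237 and 213 TPM, and Idua beside Dgkq, at 17.0 and 16.8 TPM. Glb1 shares exons and strand with Tmppe, at 6.18 TPM in replicate 1 and 5.68 TPM in replicate 2.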

How the data were processed

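Polyadenylated RNA of 2 libraries of 1 group was measured. The deposited gene and transcript tables give, per the file headers, expected counts that need not be whole, TPM and FPKM computed by the authors, posterior means and SDs of each, and, in percent, how a gene's TPM divides among its transcripts. The notes deposited beside them name build mm10 and annotation M4. The aligner is not given in the sources used here, nor is the quantifier. TPM covers all rows, spike-ins included, and 26345 rows that are no Ensembl gene, with 2.28% and 1.83% of counts, were left out. Tables of junctions and contigs on mm9 were not used here.

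Symbols, positions and transcript types came from GENCODE M21 on mm10 by identifier without version, for 42462 of 43346 genes, and promoters from RefSeq on GRCm38.p6. Ratios used a pseudocount of 1 TPM and counted as apart at a mean expected count of 20 or more. Alternatives used edgeR 4.0.16 and DESeq2 1.42.0 scaling of rounded expected counts. A chi-square statistic of 136 per degree of freedom over 19541 genes with 10 or more counts showed that neither library copies the other. With 1 group there was nothing to test, and p-values are absent. Intervals and floors of 3 counts cover counting error only. The members and lists were chosen with earlier results of these data known. Every member is named with its TPM, and counts and ratio are added for the 4 highest and 2 lowest of each role, those over 1.5-fold apart and the 6 most divided among transcripts. Of other lists up to 4 of the highest and 2 of the lowest genes were to be named. Ratios of gene pairs and the genes Xist, Kdm5d, Sumf1, Ctsg, M6pr, Igf2r and those that overlap a member were chosen after values were seen.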

Additional observations from a re-analysis of the deposited data

How the results depend on the processing

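All 37 genes stayed expressed under a threshold of 0.1 TPM, posterior mean TPM, FPKM and each library alone, and 34 did at 10 TPM. The median level was 36.3 and 42.6 as FPKM, and 52.7 and 58.1 TPM with mitochondrial genes left out of the total, in replicate 1 and replicate 2, and in both cases replicate 2 stayed higher. Without mitochondrial genes the share of TPM was 0.632% and 0.676%. The median log2 ratio of replicate 1 over replicate 2 changed sign, to -0.105 as FPKM, -0.156 with TMM, -0.167 with DESeq2 size factors and -0.12 with TPM centred on the median gene, and the median of all genes moved with it, to 0.01, -0.01, -0.02 and 0. Genes over 1.5-fold apart numbered 2 as FPKM and 2 with centred TPM, in each case Ctsd and Ctsb. They numbered 3 with TMM, DESeq2 size factors or posterior mean TPM. With transcripts that have a coding sequence, decay-targeted forms included, they numbered 5, where Asah1 joined the 4 of the main measure. Centring, and ratios from coding transcripts alone, were chosen after seeing the data. No gene was over 2-fold apart under any alternative run. Leading transcripts under 50% were found in 3 to 5 genes when 1 library was left out. No paired analysis was possible because there is 1 group. With 2 libraries, differences between them have no error estimate, and depth limits only Ctsw, with under 100 fragments per library.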
